A study of Arabidopsis thaliana with 9 samples.

Results

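The genes examined here were *EDS1*, *PAD4* and *SAG101* together with the helper receptor genes *ADR1*, *ADR1-L1*, *ADR1-L2*, *NRG1.1* and *NRG1.2*. They were chosen by locus identifier, and all 8 were among the 17605 genes of the deposited table. The table holds RNA sequencing of leaves of *Arabidopsis thaliana* Col-0 plants, 5 weeks old, in 3 groups of 3 libraries from independent experiments. Control plants were untreated. In the oviposition group, butterflies of *P. brassicae*, the large white, laid eggs on the plants during 24 hours in a tent, and 4 plants with 1 egg batch on each of 2 leaves were then kept for 4 days before the eggs were removed and the leaves taken. In the egg extract (EE) group, 2 drops of 2 µL of EE were placed under each of 2 leaves on 4 plants, and the leaves were taken after 5 days. The libraries hold RNA of bulk leaf tissue, in which more cells of a type and more RNA per cell cannot be told apart.

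*EDS1*, *PAD4* and *SAG101* encode lipase-like proteins of plant immunity. EDS1 pairs with either PAD4 or SAG101, and these pairs bind small molecules made by intracellular receptors that carry a Toll/interleukin-1 receptor (TIR) domain. EDS1 with PAD4 works through the ADR1 family of helper receptors and is best known for raising salicylic acid (SA) and basal resistance, while EDS1 with SAG101 works through the NRG1 family and is best known for cell death at the site of recognition. Downstream in leaves lie the synthesis of SA and of N-hydroxypipecolic acid (NHP), the mobile signal of systemic resistance, and the pathogenesis-related genes *PR1*, *PR2* and *PR5*.

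Reads of 2 pairs of members and neighbours could be confused, so their sequences are shown first. *EDS1* (AT3G48090, chr3:17755374-17757780, minus strand, TAIR10 coordinates of the deposited table) lies 183 bases from its neighbour AT3G48080, a copy of it. In the RefSeq coding sequences of TAIR10.1 the pair was identical at 1561 of 1859 aligned bases (84.0%). The stretch of 120 coding bases with the most differences, positions 54 to 173 from the start codon, differed at 31 bases, which are in capitals:

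EDS1: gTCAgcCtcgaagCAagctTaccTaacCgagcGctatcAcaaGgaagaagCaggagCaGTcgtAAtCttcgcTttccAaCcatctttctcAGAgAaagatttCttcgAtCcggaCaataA
AT3G48080: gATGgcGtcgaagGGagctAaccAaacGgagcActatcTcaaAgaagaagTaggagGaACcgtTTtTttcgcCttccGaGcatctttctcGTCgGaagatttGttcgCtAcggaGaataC

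The longest run shared by this pair was 44 coding bases, from position 447 to 490 of each gene, and no window of 50 bases was common to both:

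EDS1 and AT3G48080: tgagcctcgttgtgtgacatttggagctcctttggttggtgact

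*NRG1.1* (AT5G66900, chr5:26714764-26717788, minus strand) and *NRG1.2* (AT5G66910, chr5:26718232-26721256, minus strand) lie 443 bases apart and were identical at 83.9% of 2415 aligned coding bases. Their longest common run was 79 bases, from position 1877 of *NRG1.1* and position 1751 of *NRG1.2*, and 2.89% of the 50-base windows of *NRG1.1* but none of 100 bases occurred in *NRG1.2*:

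NRG1.1 and NRG1.2: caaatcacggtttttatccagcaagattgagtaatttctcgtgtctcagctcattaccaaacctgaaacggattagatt

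The read length and the rule for reads that match both copies are not given in the sources used here, so a read from such a run could belong to either gene. The *ADR1* genes, on 3 different chromosomes, were identical to each other at 71.0 to 76.0% of aligned bases, and the lipase-like genes at 59.8 to 60.3%. The RefSeq coding sequence of *NRG1.1* reached outside the gene as drawn in the deposited table, and that of the other 7 members lay inside.

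None of the 8 members passed the test in either treatment. At an adjusted p under 0.05 in a limma fit of all 17605 genes, with Benjamini-Hochberg adjustment, 0 of 8 members differed between oviposition and control, where 1.5% of all genes did, and 0 of 8 between EE and control, where 3.02% did. Between EE and oviposition it was 0 of 8, beside 0.017% of all genes. *ADR1-L2* was the member with an unadjusted p under 0.05 in each comparison with control, that is 1 of 8 beside 7.69% of all genes for oviposition and 1 of 8 beside 13.4% for EE. Between EE and oviposition it was 0 of 8 beside 2.85%. The median log2 fold change of the members was 0.16 after oviposition, 0.36 after EE treatment and 0.01 between EE and oviposition, beside -0.02, -0.04 and -0.04 for all genes. Both treatments are compared with the same 3 control libraries. The deposited values are log2 normalized counts relative to library size (CPM). Counts of 216 to 8149 reads per member and library, recovered from the deposited values, lay behind these values.

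**Figure D1:**
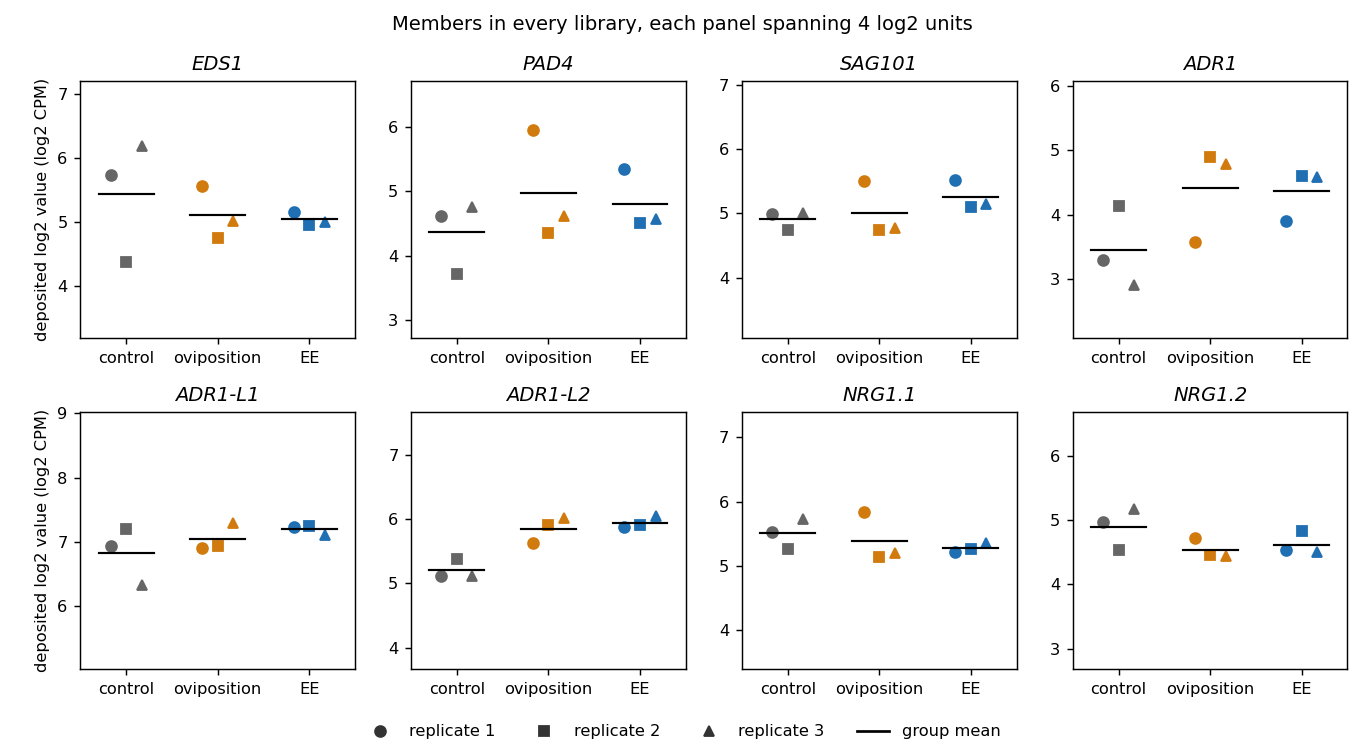
Deposited log2 values (log2 CPM, y axis) of the 8 members in control, oviposition and EE libraries (x axis), with a symbol for each replicate number and a line at each group mean. In *ADR1-L2* all treated libraries, from 5.63 to 6.04, lie above the control libraries, from 5.12 to 5.38, whereas in *EDS1* the control libraries span 4.37 to 6.18 and enclose all others.

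*EDS1*, the partner common to both complexes, was the member with the widest control group. Its deposited log2 values were 5.74, 4.37 and 6.18 in control replicates 1, 2 and 3. They were 5.56, 4.75 and 5.02 after oviposition and 5.17, 4.96 and 5.00 after EE treatment. All treated libraries lay within the range of the controls. The log2 fold change was -0.32 ± 0.43 (SE, n = 3) after oviposition (limma adjusted p = 0.998, 95% confidence interval -1.29 to 0.65) and -0.39 ± 0.43 after EE treatment (adjusted p = 0.791, interval -1.36 to 0.58). The intervals reach from 0.389 to 1.57 times the control level. Without a single library the value ran from -0.85 (control replicate 2) to 0.053 (control replicate 3) after oviposition and from -0.92 to -0.015 (the same libraries) after EE treatment.

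*PAD4* encodes the partner of EDS1 that acts with ADR1 proteins. Its log2 values were 4.61, 3.72 and 4.76 in the control libraries, 5.95, 4.35 and 4.61 after oviposition and 5.34, 4.51 and 4.57 after EE treatment. Replicate 1 of both treatments stood above every control library, while the other treated libraries lay among the controls. The log2 fold change was 0.61 ± 0.47 (SE, n = 3) after oviposition (limma adjusted p = 0.998, interval -0.45 to 1.66) and 0.45 ± 0.47 after EE treatment (adjusted p = 0.781, interval -0.61 to 1.5). Without oviposition replicate 1 the oviposition value was 0.12, and without oviposition replicate 2 it was 0.92. The EE value was 0.12 without control replicate 2, 0.18 without EE replicate 1 and 0.65 at most.

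*SAG101*, the alternative partner of EDS1 that acts with NRG1 proteins, varied less. Its log2 values were 4.99, 4.74 and 5.00 in the controls, 5.51, 4.73 and 4.78 after oviposition and 5.52, 5.10 and 5.14 after EE treatment. All 3 EE libraries lay above all 3 controls, by a margin smaller than the spread within either group. The log2 fold change was 0.34 ± 0.25 (SE, n = 3) after EE treatment (limma adjusted p = 0.664) and 0.10 ± 0.25 after oviposition (adjusted p = 0.998). The exact two-sided permutation test gave p = 0.1 for EE treatment, the smallest value that 3 libraries against 3 allow.

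*ADR1-L2*, an ADR1 family helper receptor that moves calcium into the cell once activated, was the member with the clearest separation. Its log2 values were 5.12, 5.38 and 5.12 in the controls, 5.63, 5.90 and 6.01 after oviposition and 5.88, 5.90 and 6.04 after EE treatment. The groups did not overlap with control in either treatment. The level was 1.56 times that of control after oviposition (95% confidence interval 1.17 to 2.09) and 1.66 times after EE treatment (interval 1.25 to 2.23), with log2 fold changes of 0.64 ± 0.18 and 0.74 ± 0.18 (SE, n = 3). The limma p was 0.00706 unadjusted and 0.212 adjusted for oviposition, and 0.00326 and 0.0841 for EE treatment. It missed the threshold under all 18 alternatives as well, with adjusted p from 0.163 to 0.693 for oviposition and from 0.0667 to 0.346 for EE treatment. The exact permutation test gave p = 0.1 for each, the smallest possible. Its values also had the smallest spread within groups of the 8 members, with an SD of 0.15, below that of all but 3.81% of the genes in the table.

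*ADR1*, the founding member of the family, had the largest log2 fold changes among the members and also a wide spread. Its log2 values were 3.30, 4.14 and 2.90 in the controls, 3.57, 4.90 and 4.78 after oviposition and 3.90, 4.60 and 4.59 after EE treatment. Control replicate 2 lay above replicate 1 of both treatments, so the groups overlapped. Every treated library exceeded the control library of its own replicate number. This also held for *ADR1-L2* in both treatments and for *SAG101* and *ADR1-L1* after EE treatment. No share over all genes was computed for it. For oviposition and control, deviations of libraries with equal numbers were not correlated throughout (-0.157 to 0.674). The log2 fold change was 0.98 ± 0.44 (SE, n = 3) after oviposition (limma adjusted p = 0.666, interval -0.02 to 1.97) and 0.92 ± 0.44 after EE treatment (adjusted p = 0.430, interval -0.08 to 1.92). *ADR1-L1* ranged from 6.34 to 7.21 in controls, from 6.90 to 7.30 after oviposition and from 7.11 to 7.25 after EE treatment, with log2 fold changes of 0.22 ± 0.26 and 0.37 ± 0.26 (limma adjusted p = 0.998 and 0.636).

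The NRG1 helper receptors, which act with EDS1 and SAG101 in cell death, had lower means in treated leaves than in controls, within the spread between libraries. *NRG1.1* ranged from 5.26 to 5.74 in controls, from 5.13 to 5.85 after oviposition and from 5.22 to 5.36 after EE treatment. *NRG1.2* ranged from 4.53 to 5.17 in controls, from 4.44 to 4.72 after oviposition and from 4.50 to 4.83 after EE treatment. Their log2 fold changes after oviposition were -0.12 ± 0.24 and -0.35 ± 0.22 (SE, n = 3, limma adjusted p = 0.998 and 0.943). After EE treatment they were -0.23 ± 0.24 and -0.27 ± 0.22 (adjusted p = 0.781 and 0.709). The groups overlapped in each case.

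**Figure D2:**
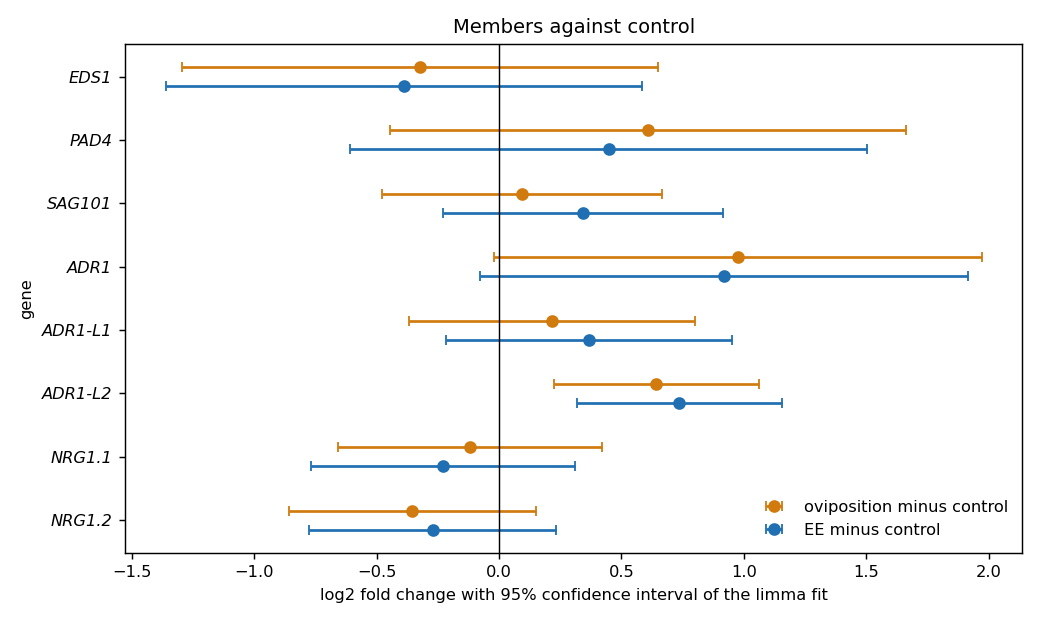
Log2 fold change against control (x axis) of each member (y axis) after oviposition and after EE treatment, with the 95% confidence interval of the limma fit, not adjusted for the number of genes. The intervals of *ADR1-L2*, 0.22 to 1.06 and 0.32 to 1.15, lie above 0, and those of the other 7 members include 0.

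Counted by overlap, 1 of 8 members (*ADR1-L2*) was separated from control after oviposition, beside 9.24% of all genes. After EE treatment it was 2 of 8 (*SAG101* and *ADR1-L2*) beside 18.8%. Between EE and oviposition it was 0 of 8 beside 10.3%. Between EE and oviposition the log2 differences of the members ran from -0.16 in *PAD4* to 0.25 in *SAG101*, each with a limma adjusted p of 0.999, and the interval for *ADR1-L2*, the narrowest of them, was -0.33 to 0.51.

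Levels of different genes were compared per kilobase of exon. Exon lengths were those of RefSeq in TAIR10.1, which can differ from the gene bounds of the deposited values. For *EDS1* they came to 2551 bases, although its deposited gene runs only from 17755374 to 17757780. The order and the shares below carry this difference. On this scale *ADR1-L1* ranged from 4.28 to 5.24 (log2 level per kilobase) and was the highest member in every library but control replicate 3, where *EDS1* stood at 4.83. *ADR1* ranged from 1.35 to 3.35 and was the lowest member except in control replicate 2, oviposition replicates 2 and 3 and EE replicate 3. In controls the mean log2 levels per kilobase were 4.77 for *ADR1-L1*, 4.08 for *EDS1*, 3.95 for *NRG1.1*, 3.77 for *SAG101*, 3.70 for *ADR1-L2*, 3.35 for *NRG1.2*, 3.19 for *PAD4* and 1.89 for *ADR1*. The control libraries of all neighbours in this order overlapped. *ADR1-L2* came second in both treated groups, at 4.34 after oviposition and 4.44 after EE treatment. Of the reads per kilobase of the *ADR1* genes, *ADR1-L1* held a mean of 61.7% in controls (56.4 to 65.3%), 53.1% after oviposition (48.6 to 56.8%) and 55.2% after EE treatment (51.4 to 58.7%).

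Ratios within a library do not depend on its depth, and the ratio of *PAD4* to *EDS1* was chosen for description after the values had been seen. The log2 value of *PAD4* minus that of *EDS1* was -1.13, -0.66 and -1.42 in control replicates 1, 2 and 3. It was 0.39, -0.40 and -0.41 after oviposition and 0.18, -0.45 and -0.43 after EE treatment. All treated libraries lay above all controls, although neither gene passed the test on its own. The mean differences from control were 0.93 and 0.84 on the log2 scale. Of the other 17604 genes, 5.62% stood higher relative to *EDS1* in all oviposition than in all control libraries, and 6.65% in all EE libraries. *EDS1* itself enters each of these ratios. The log2 ratio of the summed *ADR1* genes to the summed *NRG1* genes, per kilobase, was 0.76, 1.43 and 0.16 in controls, 0.81, 1.65 and 1.81 after oviposition and 1.60, 1.53 and 1.57 after EE treatment. The EE libraries lay above all controls with an SD of 0.04, beside 0.63 in controls, whereas oviposition replicate 1 lay among the controls. Control replicate 3 and oviposition replicate 1, the lowest of their groups, had deviations from group means correlated at 0.608 across genes. The part of this shared deviation in the ratio was not tested. No share over all genes was computed for ratios of summed genes. Of 17605 single genes, 18.8% did not overlap between EE and control in either direction, and 1606 were higher in all EE libraries. Single genes are not a like measure for this ratio. The other ratios examined overlapped with control in both treatments. These were *ADR1* and AT3G48080 to *EDS1*, *PAD4* to *SAG101*, *ADR1-L2* to *ADR1-L1* and *NRG1.2* to *NRG1.1*.

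**Figure D3:**
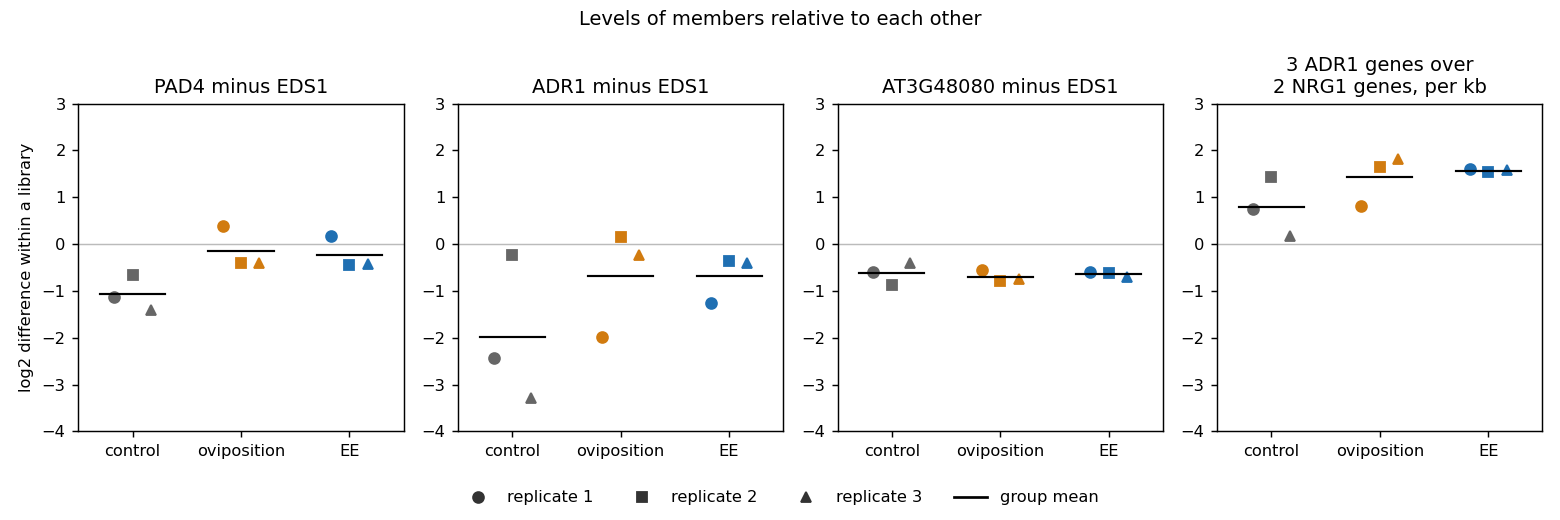
Log2 differences within each library (y axis) for *PAD4* minus *EDS1*, *ADR1* minus *EDS1*, AT3G48080 minus *EDS1*, and the summed *ADR1* over the summed *NRG1* genes per kilobase, in control, oviposition and EE libraries (x axis), with group means as lines. *PAD4* minus *EDS1* is at most -0.66 in controls and at least -0.45 in treated libraries, while AT3G48080 minus *EDS1* stays between -0.88 and -0.39 in all libraries.

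Replicates differed within groups for several members. For *EDS1*, *PAD4* and *ADR1*, replicate 2 deviated in the same direction in each group, by amounts that differed between groups. Replicate 2 of *EDS1* lay 1.58 below the mean of the other replicates in controls, 0.54 below in oviposition and 0.12 below in EE (log2). In *PAD4* it lay 0.97, 0.93 and 0.45 below, and in *ADR1* 1.04, 0.72 and 0.36 above. In the treated groups replicates 2 and 3 of *PAD4* and *ADR1* were close together and replicate 1 was apart. Averaged over the groups, replicate 2 was 0.75 lower for *EDS1*, 0.78 lower for *PAD4* and 0.71 higher for *ADR1*. Among all genes these differences stood at the percentiles 12.9, 12.2 and 89.8. The summed level of the leaf mesophyll markers *RBCS1A*, *RBCS2B*, *CA1*, *LHCB2.1* and *LHCA1*, all 5 detected, moved in the same libraries. It was 12.6, 13.0 and 12.5 (log2) in replicate 2 of control, oviposition and EE, beside at least 14.0, 14.1 and 13.5 in the others. Of 11 markers of other leaf cells, roots, flowers and late senescence, 6 were in the table, and their summed level ranged from 8.42 to 9.13. The phloem marker *SUC2*, with group means of 7.81 to 8.13, weighed most in this sum. Guard cell markers differed in direction. Log2 fold changes after oviposition and EE treatment were -1.07 and -1.34 for *MYB60*, -0.63 and -0.58 for *FAMA*, and 0.22 and 0.30 for *KAT1*. None of these passed the limma test. The root markers *PYK10* and *CASP1*, the flower markers *AG* and *AP3*, and *SAG12* were not among the genes analysed. The part of the difference in leaf markers in these results was not tested. Without the 3 replicate 2 libraries the log2 fold change of *EDS1* was -0.67 after oviposition and -0.88 after EE treatment (limma adjusted p = 0.645 and 0.265), and that of *ADR1-L2* was 0.70 and 0.84 (adjusted p = 0.507 and 0.219).

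By the root-mean-square difference between centred log2 values over the 9 libraries, the genes nearest to *EDS1* among 16951 genes were AT4G34840, *NUDX25* (0.130 each) and its neighbour AT3G48080 (0.135). AT3G48080 had log2 values of 5.14, 3.50 and 5.78 in controls, 5.00, 3.95 and 4.28 after oviposition and 4.56, 4.34 and 4.30 after EE treatment, and thus the same low control replicate 2 as *EDS1*. It did not pass the test, with log2 fold changes of -0.39 and -0.41 (limma adjusted p = 0.998 and 0.826). Nearest to *PAD4* were AT1G21830, AT1G49840 and AT4G17940 (0.178 to 0.213), and nearest to *SAG101* were AT5G66675, AT4G17250 and AT5G05100 (0.0876 to 0.139). Among the members, *NRG1.1* and *NRG1.2* were nearest to each other (0.187), as were *ADR1-L1* and *ADR1-L2* (0.269). *ADR1* was nearest to *ADR1-L2* (0.411), and *EDS1* and *ADR1* were the pair farthest apart (1.13).

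AT5G66890, annotated in the table as a leucine-rich repeat family protein, lies 380 bases from *NRG1.1* and is identical to it at 75.3% of 1225 aligned coding bases. It was at the limit of detection, with 0, 0 and 1 reads in the controls, 15, 9 and 5 after oviposition and 12, 13 and 8 after EE treatment. With 29 reads against 1, the ratio of oviposition to control was 28.4 (95% interval 4.70 to 1158). With 33 against 1, that of EE treatment was 29.5 (4.94 to 1200), and both intervals cover counting error only. It did not pass the test (limma adjusted p = 0.253 and 0.136), but did without the mean-variance trend (0.0240 and 0.0133). *ADR1-L3* was not among the genes analysed.

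Among the other genes of the pathway, some of those linked to SA and NHP passed the test. From 5 lists, written with earlier results of these data known, 63 of 68 genes were measured. Of these, 4 rose after oviposition (beside 1.5% of all genes called), 6 after EE treatment (beside 3.02%) and none fell. Between EE and oviposition 0 differed (limma), with 3 at an unadjusted p under 0.05, beside 2.85% of all genes. Those that rose in this fit belonged to the list of SA and NHP output, of which 19 of 19 were measured, and 15 of these did not pass after oviposition and 13 after EE treatment. The mean of 4 was lower than control after oviposition and that of 5 after EE treatment. Its median log2 fold change was 0.89 after oviposition and 1.1 after EE treatment. No call was made among the 17 regulators and copies (medians 0.05 and -0.06), the 18 TIR receptors (-0.22 and 0.01), the 7 coiled-coil (CC) receptors and their partners (-0.19 and 0.02) or the 2 RPW8-like genes (0.18 and 0.11). Of the 17 regulators and copies, 3 after oviposition and 2 after EE treatment had an unadjusted limma p under 0.05. The shares of all genes were 7.69% and 13.4%. AT5G66890, a copy with 0 or 1 reads in each control library, was among them both times. With the replicate number as a block, the regulator *NUDT6*, which encodes a nudix hydrolase, passed after oviposition (adjusted p = 0.0432, against 0.221 without the block). For oviposition and control, deviations of libraries with equal numbers were not correlated throughout (-0.157 to 0.674).

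*PR1*, the standard marker of the SA pathway, had log2 values of 1.56, 1.65 and -0.70 in controls, 8.92, 6.70 and 7.90 after oviposition and 10.0, 9.39 and 9.51 after EE treatment. It rose by 7.0 ± 0.70 and 8.80 ± 0.70 (SE, n = 3) on the log2 scale (limma adjusted p = 0.00295 and 0.000484). *PR2*, a beta-1,3-glucanase gene, rose by 4.48 ± 0.60 and 4.07 ± 0.60 (adjusted p = 0.00833 and 0.00776). With only the 2 groups in the fit the oviposition call of *PR2* was lost (log2 fold change 4.48, adjusted p = 0.0530). *PR5*, another SA marker, had log2 fold changes of 2.68 ± 0.66 and 2.18 ± 0.66 (adjusted p = 0.122 and 0.162). The groups did not overlap with control for any of these genes.

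*FMO1* and *ALD1*, which encode enzymes of NHP synthesis, were near the limit of detection in controls, with 5 to 18 and 2 to 11 reads. *FMO1* rose by 4.44 ± 0.49 after oviposition and 4.70 ± 0.49 (SE, n = 3) after EE treatment (limma adjusted p = 0.00410 and 0.00147). *ALD1* rose by 4.79 ± 0.59 and 4.12 ± 0.59 (adjusted p = 0.00563 and 0.00676). The calls of *FMO1* after oviposition and of *ALD1* after both treatments were lost without the 3 replicate 2 libraries (adjusted p = 0.0714, 0.0759 and 0.0504), where the log2 fold changes were 4.20, 4.42 and 4.05. The oviposition call was also lost for *FMO1* with voom on recovered reads (log2 fold change 4.40, adjusted p = 0.0519) and for *ALD1* with only the 2 groups in the fit (4.79, 0.0615).

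*CBP60G*, a transcription factor gene that drives SA synthesis, rose by 1.86 ± 0.30 (SE, n = 3) after EE treatment (limma adjusted p = 0.0115) and had a log2 fold change of 1.22 ± 0.30 after oviposition (adjusted p = 0.114). Without EE replicate 1 its adjusted p was 0.0551. *UGT76B1*, which encodes a glucosyltransferase of SA and NHP, rose by 3.41 ± 0.62 after EE treatment (limma adjusted p = 0.0208) from 3 to 13 reads in controls, and had a log2 fold change of 2.71 ± 0.62 after oviposition (adjusted p = 0.0874, and 0.0400 without the mean-variance trend). The *UGT76B1* call after EE treatment was lost in 8 of the alternatives, with adjusted p up to 0.124. With the replicate number as a block, *PBS3*, whose enzyme makes the SA precursor, and *WRKY46* also passed after EE treatment (limma adjusted p = 0.0303 and 0.0125, against 0.0666 and 0.227 without the block). After oviposition the block added *PBS3*, *WRKY46* and *PR5* (adjusted p = 0.0444, 0.0478 and 0.0401, against 0.0932, 0.649 and 0.122) beside *NUDT6*. These 4 genes are named because of that change. The block assumes that equal numbers belong together, but for oviposition and control their deviations were not correlated throughout (-0.157 to 0.674). For EE and control, some unlike numbers were correlated as well.

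**Figure D4:**
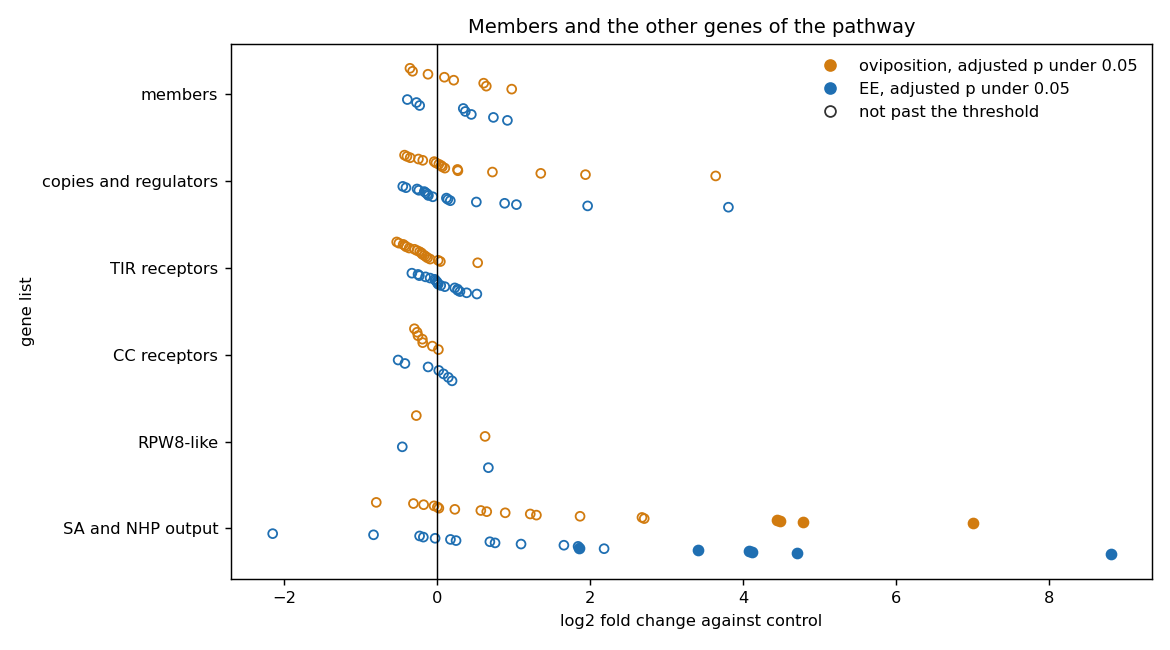
Log2 fold change against control (x axis) of the 8 members and of the measured genes in 5 further lists (y axis), in orange after oviposition and in blue after EE treatment, with filled points for an adjusted p under 0.05. Filled points occur in the list of SA and NHP output, up to 7.0 and 8.80 for *PR1*, while every member lies between -0.39 and 0.98.

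Promoter sequence was set beside these values as context. The 250 bases before the RefSeq gene start in TAIR10.1 were searched on both strands for TTGAC, the core of the W box bound by WRKY factors, and for TGACG, the core of elements bound by TGA factors, which can overlap it. TTGAC occurred in 3 of 8 members (*EDS1*, *SAG101* and *NRG1.2*), beside 44.9% of 27443 promoters, and TGACG in 1 of 8 (*NRG1.2*), beside 18.6%. *ADR1-L2* was taken as the member without overlap with control in either treatment, although it was not called. The promoters of *EDS1*, with its match in capitals, and of *ADR1-L2* are printed 5′ to 3′ on the strand of the gene. They cover chr3:17758148-17758397, minus strand, and chr5:1360339-1360588, plus strand:

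EDS1 promoter: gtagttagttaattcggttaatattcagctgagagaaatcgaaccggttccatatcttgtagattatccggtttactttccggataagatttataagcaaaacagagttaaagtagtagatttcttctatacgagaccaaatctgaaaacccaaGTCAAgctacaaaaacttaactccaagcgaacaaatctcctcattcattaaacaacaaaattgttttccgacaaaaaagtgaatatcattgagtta
ADR1-L2 promoter: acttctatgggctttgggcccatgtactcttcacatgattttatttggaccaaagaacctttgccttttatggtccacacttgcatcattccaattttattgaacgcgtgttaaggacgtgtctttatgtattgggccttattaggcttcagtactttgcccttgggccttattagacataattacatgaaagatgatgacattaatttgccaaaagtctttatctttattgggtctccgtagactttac

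The *EDS1* match began 96 bases before the RefSeq gene start. In the deposited coordinates *EDS1* starts at 17757780 and *ADR1-L2* at 1360712, both inside the RefSeq genes. Windows before those starts were not searched. Neither motif was found in the *ADR1-L2* window.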

How the data were processed

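Reads of 9 leaf libraries were mapped by the authors to TAIR10 with STAR, and their counts were normalized by the trimmed mean of M-values and per library size. The labels also name cutadapt 1.5, HTSeq, edgeR 3.4.0 and limma 3.2. The authors deposited log2 normalized counts (CPM) for 17605 genes, and the filter behind this set is not given in the sources used here. Deposited annotation columns of other kinds (description, chromosome, start, end, strand) came from the same table. A second deposited table holds the authors' own fold changes and p-values and was not used. All libraries shared a median of 4.19, so the values include a scaling between libraries. Whole reads were recovered from 158445 values (100% within 0.01 reads), with totals of 37348236 to 47057692 per library. The fitted library size was 0.700 times the total in control replicate 3.

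Log2 values were fitted with limma 3.58.1 in R 4.3.3, with 1 mean per group, a mean-variance trend and Benjamini-Hochberg adjustment over all genes at 0.05. The fit was tested on simulated data, where it recovered 59 of 100 genes changed by 2 log2 units and 86 of 100 changed by 4. Smaller changes were not simulated. The exact permutation test was two-sided. Figures were drawn with matplotlib 3.10.9. Exon lengths and sequences came from RefSeq (TAIR10.1), in which 17197 genes were matched by locus and all overlapped the deposited position. RefSeq gives AT5G66900 and AT5G66910 by locus only, and the names *NRG1.1* and *NRG1.2* came with the choice of members. Deviations from group means of libraries that share a replicate number were correlated for EE and control (correlation across genes 0.318 to 0.775) and for EE and oviposition (0.526 to 0.764), with every number above 0.1, but not for oviposition and control (-0.157 to 0.674). Unlike numbers reached 0.432 for EE replicate 1 and control replicate 3, beside 0.335 for replicate 1 of both. They reached 0.608 for oviposition replicate 1 and control replicate 3, beside 0.023 for replicate 1 of both. Between EE and oviposition they reached 0.109 at most. The pairing comes from the replicate numbers in the labels, and the independent experiments they may stand for are named in the design. Genes named were the members, pathway genes past the threshold, the 2 neighbouring copies and *ADR1-L3*, and the genes nearest in pattern. The members and lists were chosen with earlier results of these data known. Alternatives were no trend, a replicate block, only the 2 groups compared, quantile normalization, 1 CPM added, a mean of at least 0, voom on recovered reads and dropping each library in turn. Chosen after seeing the data were fits without the 3 replicate 2 libraries and with the scaling undone, and *PAD4* minus *EDS1* from recovered reads.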

Additional observations from a re-analysis of the deposited data

How the results depend on the processing

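Under the 18 alternatives, 0 of 8 members passed the threshold in any comparison. Direction and side of the threshold were kept in 144 of 144 settings of the members for EE against control, 140 of 144 for oviposition against control and 134 of 144 for EE against oviposition. Leaving out a library in turn gave log2 fold changes after oviposition of -0.85 to 0.053 for *EDS1*, -0.16 to 0.23 for *SAG101*, -0.027 to 0.41 for *ADR1-L1*, -0.35 to 0.010 for *NRG1.1* and -1.05 to 0.094 for AT3G48080, which ran from -1.06 to 0.081 after EE treatment. *ADR1* ran from 0.70 to 1.40 after oviposition and 0.65 to 1.27 after EE treatment, and *ADR1-L1* from 0.12 to 0.56 after EE treatment. Between EE and oviposition the ranges were -0.25 to 0.16 (*EDS1*), -0.47 to 0.33 (*PAD4*), -0.48 to 0.18 (*ADR1*), -0.015 to 0.18 (*ADR1-L2*), -0.24 to 0.12 (*NRG1.1*), -0.020 to 0.18 (*NRG1.2*), -0.10 to 0.57 (*FMO1*), -1.16 to 0.080 (*PR2*), -0.24 to 0.28 (AT3G48080) and -0.25 to 0.58 (AT5G66890). Without the 3 replicate 2 libraries the values there were 0.065 for *ADR1* and -0.062 for *NRG1.2*. For AT3G48080 they were 0.0050 with quantile normalization, 0.037 with voom and 0.032 with the scaling undone. The cause of these changes was not tested.

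The 4 pathway genes called after oviposition became 8 with a replicate block, 2 with only the 2 groups compared and 2 without the 3 replicate 2 libraries (fewer samples in both), and 4 to 5 when leaving out a library in turn. The 6 called after EE treatment became 8 with a replicate block and 4 to 8 when leaving out a library. The replicate block changed no call of a member, though equal numbers stood out throughout only between EE and oviposition. Of all genes, 264 were called after oviposition, and 54 with only the 2 groups, 67 with voom on recovered reads, 164 with quantile normalization and 99 without the replicate 2 libraries. Leaving out a library gave 114 (without oviposition replicate 2) to 333 (without control replicate 2), and the block 387. The 532 called after EE treatment became 343 with voom and 350 without those libraries, 210 (without EE replicate 1) to 774 (without control replicate 2) when leaving out a library, and 775 with the block. The 3 between EE and oviposition became 36 with 1 CPM added, 14 with quantile normalization, 5 with voom or only the 2 groups, 1 with the block and 0 without those libraries.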
